A study of Mus musculus with 2 samples.

Results

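Egr1, Egr2, Egr3, Nr4a1, Nr4a2 and Nr4a3 were chosen by gene symbol, which gave 6 genes of the 31053 in the count matrices, and all 6 had UMIs in both libraries. A UMI (unique molecular identifier) marks 1 captured transcript. Single-cell RNA sequencing was done on bone marrow haematopoietic stem cells (HSCs), which renew themselves and give rise to every blood lineage, of wild-type C57BL/6J mice, aged 6 to 8 weeks per the labels. The Listeria library came from mice sampled 6 weeks after challenge with the bacterium Listeria monocytogenes, and the naive library from mice with no treatment. Both carry the same age range. Whether it is the age at challenge or at sampling was not resolved, so ages at sampling may differ. The deposited file names mark the Listeria library as a knockout and the naive library as wild type, whereas the labels give wild type for both. The labels were followed, and a genotype difference cannot be told apart from the challenge. There was 1 library per group, the number of mice behind each is not given, and all differences are between these libraries, with no test and with 95% intervals that cover counting error only.

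Early growth response proteins (Egr) are zinc finger transcription factors, and the Nr4a proteins are orphan nuclear receptors. Both families, like the AP-1 subunit Fos, are classical immediate early genes, transcribed within minutes of a stimulus without new protein synthesis. In mice, Egr1 is known for its part in holding stem cells quiescent and in the niche, Nr4a1 and Nr4a3 for restraining stem cell proliferation and myeloid expansion, Nr4a2 for activity in T cells, and Egr2 and Egr3 for restraining activated lymphocytes. Immediate early transcripts also change while tissue is taken apart, and the part of cell handling in the values below was not tested.

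Upstream sequences of 3 members are shown beside that of Fos, because the members are set against Fos below. Each is the 250 bases before a start site in RefSeq's GRCm38.p6 table, which held 4 of the 6 members. Egr1 and Egr3 are named only. They lie at chr15:101266596-101266845 (plus) for Nr4a1, chr2:57124004-57124253 (minus) for Nr4a2, chr10:67537619-67537868 (plus) for Egr2 and chr12:85473640-85473889 (plus) for Fos. Capitals mark TGACG, the core of the cAMP response element, on either strand (CGTCA when read on the other), and the CArG box, which serum response factor binds.
Nr4a1: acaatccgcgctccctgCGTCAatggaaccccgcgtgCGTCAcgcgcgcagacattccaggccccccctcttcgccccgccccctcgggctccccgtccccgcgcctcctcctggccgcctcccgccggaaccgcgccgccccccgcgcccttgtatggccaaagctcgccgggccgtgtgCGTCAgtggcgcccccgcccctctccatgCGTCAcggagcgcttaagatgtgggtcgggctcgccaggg
Nr4a2: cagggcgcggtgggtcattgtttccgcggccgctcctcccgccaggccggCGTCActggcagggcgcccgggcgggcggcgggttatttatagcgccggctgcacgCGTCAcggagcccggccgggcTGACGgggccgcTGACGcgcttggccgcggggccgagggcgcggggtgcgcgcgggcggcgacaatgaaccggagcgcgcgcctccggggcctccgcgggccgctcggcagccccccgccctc
Egr2: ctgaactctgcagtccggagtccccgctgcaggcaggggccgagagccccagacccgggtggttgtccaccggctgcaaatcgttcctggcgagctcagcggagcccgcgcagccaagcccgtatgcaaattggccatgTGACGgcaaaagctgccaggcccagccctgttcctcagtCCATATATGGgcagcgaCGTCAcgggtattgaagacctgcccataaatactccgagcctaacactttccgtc
Fos: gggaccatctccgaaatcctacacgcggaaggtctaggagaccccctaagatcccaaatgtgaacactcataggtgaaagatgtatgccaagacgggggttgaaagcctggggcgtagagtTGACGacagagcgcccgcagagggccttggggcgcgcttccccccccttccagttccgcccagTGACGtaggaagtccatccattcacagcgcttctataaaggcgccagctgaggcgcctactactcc
The windows of Nr4a1 and Nr4a2 each held TGACG 4 times, and so did that of Nr4a3, which overlaps annotated exons and is not printed. Egr2 and Fos each held it 2 times. Among 32851 windows of this length, 17.8% held it at least once and 0.137% at least 4 times, a count chosen after the 4 matches had been seen. A CArG box was found in the Egr2 window and in 1.47% of all windows. Sequence outside the 250 bases was not searched, so a box further upstream, in Fos or a member, would be missed. The full element TGACGTCA and the Egr motif GCGTGGGCG were found in none of these 5 windows, and TTATTTATA, read on either strand, was found once, in that of Nr4a2. Such matches are letters in a window and were not tied to any factor.

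Gene positions are those of GENCODE vM21 on mm10. Egr1 lies on chromosome 18 (34859823 to 34864984, plus strand), Egr2 on chromosome 10 (67535475 to 67542188, plus), Egr3 on chromosome 14 (70077203 to 70082614, plus), Nr4a1 on chromosome 15 (101254269 to 101274795, plus), Nr4a2 on chromosome 2 (57106830 to 57124003, minus) and Nr4a3 on chromosome 4 (48045153 to 48086447, plus). No other annotated gene overlaps any of them.

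Cells were barcodes with at least 2500 UMIs, at least 500 genes and at most 10% mitochondrial UMIs. This left 4839 Listeria and 6375 naive cells, with a median of 7239 UMIs in Listeria and 6972 in naive, from a Listeria library of 43895966 and a naive library of 64619150 UMIs, and 14 cell barcodes occurred in both. Classes were set by counting, in each cell, the markers of a class with a UMI, and each is called after its markers. HSC-like cells, with UMIs of at least 7 of 18 stem cell markers, numbered 1057 in the Listeria and 1250 in the naive library, so the libraries labelled HSC also held many other cells. In HSC-like cells 15 (Listeria) and 17 (naive) of the 18 markers were over 2-fold above the other cells, and Meg3, Procr and Mllt3 were among the leading genes. Multipotent progenitor-like cells numbered 1808 in Listeria and 2051 in naive, with only 7 (Listeria) and 5 (naive) of their 11 markers over 2-fold above the other cells, and 10 classes had at least 20 cells in both libraries. No member is a marker. Of the multipotent progenitor-like cells, 784 in the Listeria and 1012 in the naive library also met another class. So did 327 Listeria and 323 naive HSC-like cells. Among early B-like cells 329 in Listeria and 1130 in naive did so, and among myeloid progenitor-like cells 35 in Listeria and 47 in naive. These were most cells of the early B-like and myeloid progenitor-like classes, so values without them rest on a minority of each class. Of megakaryocyte lineage-like cells, 139 of 295 in Listeria and 122 of 191 in naive also met another class. So did 43 of 78 Listeria and 112 of 237 naive innate lymphoid-like cells.

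The first comparison asked where the 6 genes are transcribed. Egr1 and Nr4a1 were highest in HSC-like cells in both libraries, Nr4a2 and Nr4a3 were high in T or NK cell-like and innate lymphoid-like cells as well but low in early B-like and plasma cell-like cells, and Egr2 and Egr3 had their highest values in plasma cell-like cells. Levels are UMIs per 1e6 UMIs (CPM) of a class's summed UMIs, and being counts of transcript 3' ends they are not scaled by length.

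**Figure D1:**
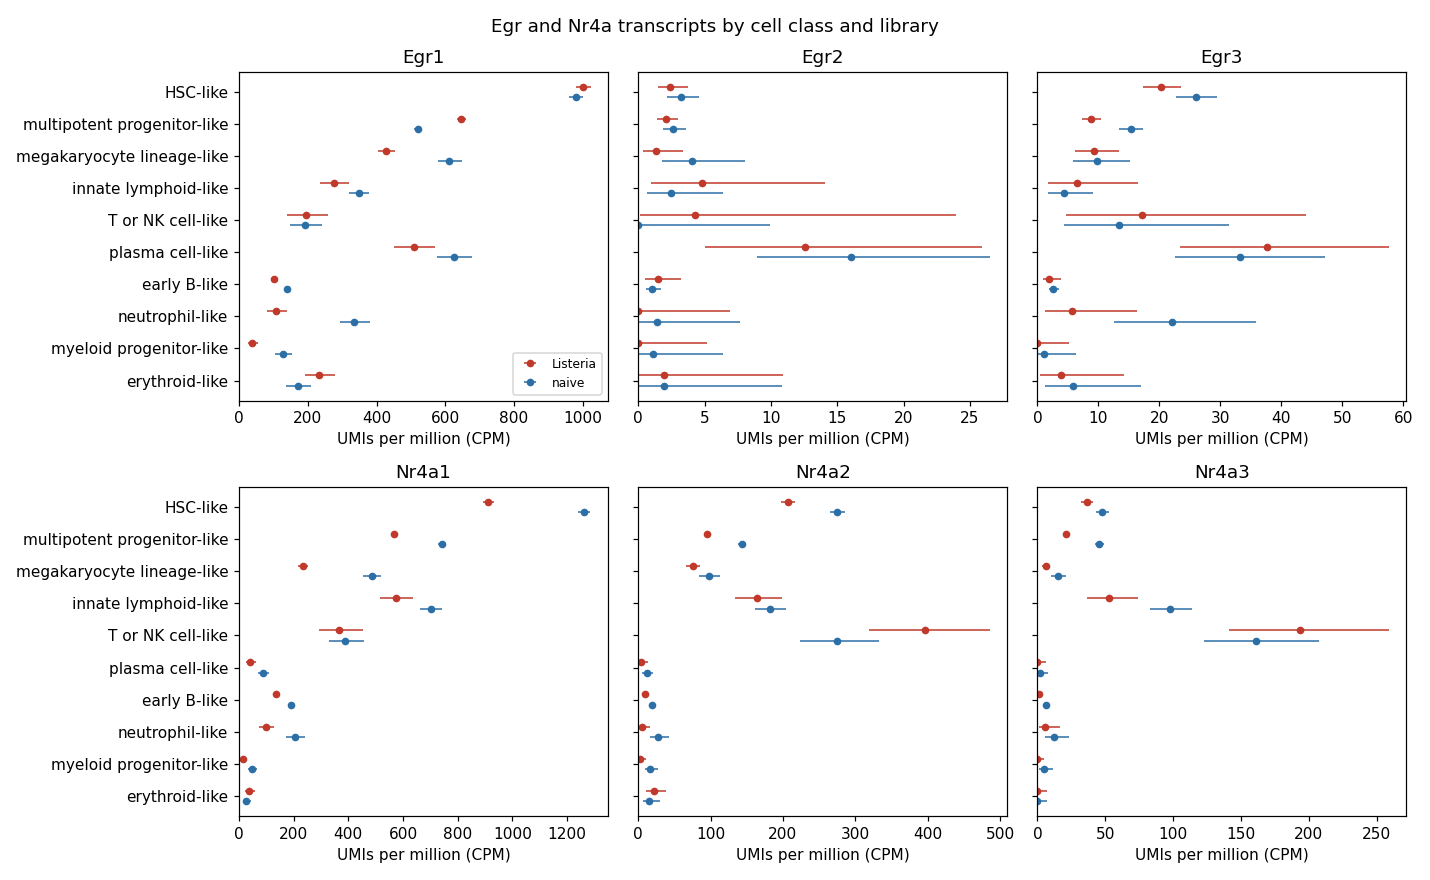
Levels of the 6 genes (x axis, CPM, a scale of its own for each gene) in 10 classes (y axis), with Listeria above naive in each class and 95% Poisson intervals as bars. Egr1 and Nr4a1 are highest in HSC-like cells and Nr4a3 in T or NK cell-like cells, at 194 CPM in Listeria and 161 in naive.

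Egr1 stood at 1001 CPM (979 to 1023) in Listeria and 979 CPM (959 to 999) in naive HSC-like cells, and the intervals overlap. Multipotent progenitor-like cells had 646 CPM in Listeria, the next highest level there, and 520 CPM in naive, below plasma cell-like and megakaryocyte lineage-like cells. Megakaryocyte lineage-like cells, the precursors of platelets, had 428 CPM in Listeria and 612 CPM in naive. Plasma cell-like cells, which secrete antibody, had 508 CPM in Listeria and 625 CPM in naive. All values of this class rest on only 32 Listeria and 71 naive cells. Plasma cell-like and megakaryocyte lineage-like cells had overlapping intervals in each library. In early B-like cells Egr1 was at 103 CPM in Listeria and 140 CPM in naive, and in myeloid progenitor-like cells, which express granule enzymes, at 38.0 CPM in Listeria and 128 CPM in naive. After thinning each cell to 4000 UMIs, 69.3% of Listeria and 79.3% of naive HSC-like cells had an Egr1 UMI, against 9.09% of Listeria and 20.4% of naive myeloid progenitor-like cells. Before thinning the HSC-like shares were 77.2% in Listeria and 88.4% in naive. Free RNA, estimated from neutrophil and haemoglobin genes at 5.81% of the UMIs of Listeria and 5.50% of those of naive cells, would alone give an Egr1 UMI to 9.12% of Listeria and 6.97% of naive cells at this depth. The Listeria share of myeloid progenitor-like cells is near its free RNA value and by itself cannot be told from background. The naive share (10.2% to 34.3%) lies above its free RNA value. Free RNA was estimated in HSC-like and early B-like cells, not in this class.

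Nr4a1 had the same first class, with 912 CPM (892 to 933) in Listeria and 1262 CPM (1239 to 1285) in naive HSC-like cells, and the intervals do not overlap. Multipotent progenitor-like cells (569 CPM in Listeria, 742 CPM in naive) and innate lymphoid-like cells (574 CPM in Listeria, 702 CPM in naive) came next, with overlapping intervals within each library. Plasma cell-like cells, high in Egr1, were low in Nr4a1, with 41.3 CPM in Listeria and 88.8 CPM in naive. Of the summed UMIs of Egr1 and Nr4a1, Egr1 made up 92.5% in Listeria and 87.6% in naive plasma cell-like cells, against 52.3% in Listeria and 43.7% in naive HSC-like cells. It made up 32.5% in Listeria and 33.2% in naive innate lymphoid-like cells. The balance of the 2 genes thus differed between classes by more than counting error.

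Nr4a2 was as high in T or NK cell-like as in HSC-like cells or higher. It had 396 CPM (319 to 485) in Listeria and 274 CPM (223 to 333) in naive T or NK cell-like cells. Its level in HSC-like cells was 207 CPM in Listeria and 275 CPM in naive, so the naive intervals of these classes overlap and the Listeria intervals do not. Nr4a3 was highest in T or NK cell-like cells, with 194 CPM (141 to 259) in Listeria and 161 CPM (123 to 208) in naive. Innate lymphoid-like cells followed, with 53.0 CPM in Listeria and 97.6 CPM in naive, and HSC-like cells had 36.4 CPM in Listeria and 47.8 CPM in naive. These T or NK cell-like sums rest on 51 Listeria and 82 naive cells, with a median of 3855 UMIs in Listeria and 4036 in naive.

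Egr2 was near the limit of detection, with 20 UMIs in all Listeria and 30 in all naive HSC-like cells. Its highest level was in plasma cell-like cells, at 12.6 CPM (7 UMIs) in Listeria and 16 CPM (15 UMIs) in naive. Egr3 had 37.7 CPM (21 UMIs) there in Listeria and 33.2 CPM (31 UMIs) in naive. It had 20.3 CPM in Listeria and 26.0 CPM in naive HSC-like cells, and its intervals of these neighbouring classes overlap. Egr2 is thus described by few molecules in every class, and Egr3 by few in plasma cell-like cells. Egr3 had 167 Listeria and 243 naive UMIs in HSC-like cells, and 129 Listeria and 236 naive UMIs in multipotent progenitor-like cells.

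RNA outside cells held the members too. In barcodes with 1 to 50 UMIs, Egr1 was at 411 CPM in Listeria and 329 CPM in naive, and Nr4a1 at 516 CPM in Listeria and 541 CPM in naive. Egr1 was below that level in 6 of 10 Listeria classes and 6 of 12 naive classes with at least 20 cells, and Nr4a1 in 7 Listeria and 9 naive ones. Free RNA was put at only 5.81% of the UMIs of Listeria and 5.50% of those of naive cells, from HSC-like and early B-like cells. A class level below that of free RNA is therefore not by itself background, though some of its UMIs may be free RNA. The levels of HSC-like cells lay above free RNA for both genes.

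The next comparison set the Listeria library against the naive one. In HSC-like cells Nr4a1, Nr4a2, Nr4a3 and Egr3 were lower in Listeria by similar ratios, while Egr1 differed little and Fos was higher. The log2 ratio was -0.47 (-0.51 to -0.43) for Nr4a1, from 7514 Listeria and 11814 naive UMIs. It was -0.41 (-0.50 to -0.32) for Nr4a2, -0.39 (-0.61 to -0.18) for Nr4a3, -0.36 (-0.65 to -0.07) for Egr3 and -0.40 (-1.29 to 0.46) for Egr2. Nr4a3 had only -0.18 without cells that met another class and -0.10 after thinning. Egr1 had 0.03 (-0.01 to 0.07), and its sign changed to -0.078 with TMM factors and -0.093 with median-ratio factors, which move all ratios of this class by -0.11 and -0.12. Fos, at 1143 CPM in Listeria and 807 CPM in naive, had 0.50 (0.46 to 0.55).

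With a limit of 1.5-fold and at least 20 CPM in either library, none of the 5 members measured in HSC-like cells was past the limit, where 3.25% of all 6101 genes were higher and 1.07% lower. Their median log2 ratio was -0.39, beside 0.12 over all genes measured. Of 62 immediate early genes, a list that was made with results of these data known, 52 were measured. None was over 1.5-fold higher and 15 were lower, with a median of -0.29. The 4 lowest were Gadd45g (25.4 CPM in Listeria, 53.4 in naive, log2 ratio -1.07), Fosl1 (19.1 in Listeria, 38.5 in naive, -1.01), Klf4 (512 in Listeria, 997 in naive, -0.96) and Atf3 (524 in Listeria, 1018 in naive, -0.96). Gadd45g encodes a growth arrest and DNA damage inducible protein, Fosl1 an AP-1 subunit, and Klf4 and Atf3 stress-responsive transcription factors.

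**Figure D2:**
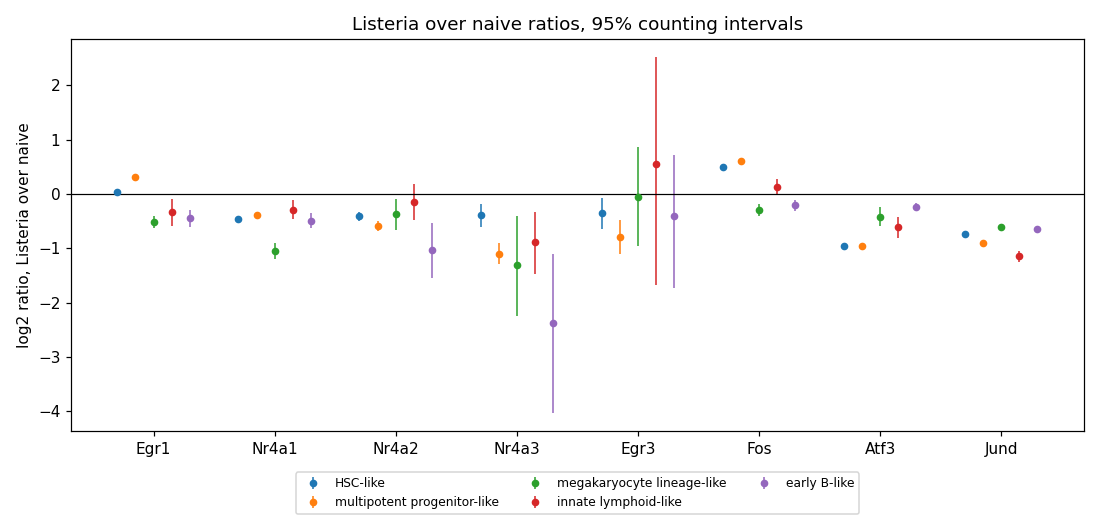
Log2 ratios of Listeria over naive (y axis) for 5 members and for Fos, Atf3 and Jund (x axis) in 5 classes (colours), with 95% counting intervals as bars. Nr4a1 lies below 0 in all 5 classes, Egr1 lies above 0 in multipotent progenitor-like cells (0.31) and below it in megakaryocyte lineage-like cells (-0.51).

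In multipotent progenitor-like cells Nr4a3 showed the largest difference of the members, with 21.3 CPM in Listeria and 45.6 CPM in naive and a log2 ratio of -1.10 (-1.29 to -0.90). Nr4a2 had -0.59 and Nr4a1 -0.38. Nr4a3 and Nr4a2 were the 2 of 4 measured members past 1.5-fold, both lower, where 2.14% of all genes were lower and 2.59% higher. Egr1 had 0.31 (0.27 to 0.36), but -0.15 once cells that also met another class were left out. Egr3, under 20 CPM, had -0.79 (-1.11 to -0.48), and Fos had 0.61. Fos was not higher in every class. It was lower in Listeria in megakaryocyte lineage-like (-0.30, -0.41 to -0.18), early B-like (-0.21, -0.32 to -0.11) and plasma cell-like cells (-0.23, -0.34 to -0.13). The same held in neutrophil-like (-1.15, -1.47 to -0.84) and myeloid progenitor-like cells (-1.18, -1.72 to -0.66). Its intervals included 0 in erythroid-like, T or NK cell-like and innate lymphoid-like cells.

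In megakaryocyte lineage-like cells Egr1 (-0.51), Nr4a1 (-1.05), Nr4a2 (-0.37) and Nr4a3 (-1.31, from 18 Listeria and 29 naive UMIs) were lower in Listeria. Nr4a1 was the 1 of 3 measured members past the limit, where 3.84% of all genes were lower and 6.02% higher. In early B-like cells Egr1 had -0.44 and Nr4a1 -0.49, and neither of these 2 measured members was past the limit (Egr1 had 0.091 without cells that met another class), where 1.12% of all genes were lower and 0.628% higher. Nr4a3 had 5 UMIs in Listeria and 88 in naive early B-like cells, a log2 ratio of -2.38 (-4.03 to -1.10). Over the 10 classes Nr4a1 was lower in 9, with an interval that excludes 0 in 8. In erythroid-like cells it had 0.46 (-0.62 to 1.56), and -0.74 without cells that met another class. Egr1 was lower in 6, all with such an interval, and higher in 4, of which 2 had one. Without cells that met another class its sign changed in multipotent progenitor-like, early B-like, erythroid-like and innate lymphoid-like cells as well as in HSC-like cells.

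In plasma cell-like cells 1 of 3 measured members, Nr4a1 (-1.11), was past 1.5-fold, where 11% of genes were lower and 17.7% higher. In innate lymphoid-like cells 1 of 4, Nr4a3 (-0.88), was past it, where 8.04% were lower and 12.2% higher. None of 4 measured members was past it in T or NK cell-like cells, where 14.8% were lower and 20.7% higher, and none of 3 in erythroid-like cells, where 14.9% were lower and 13.5% higher. Over all cells none of 4 measured members was past it, where 3.37% of genes were lower and 2.65% higher. Sums over all cells mix classes whose shares differ: early B-like cells made up 8.10% of Listeria and 21.5% of naive cells.

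Granulocytic cells had the lowest Egr1 ratios. Neutrophil-like cells (82 Listeria, 91 naive) had 108 CPM in Listeria and 335 CPM in naive, a log2 ratio of -1.63 (-2.07 to -1.21), and Nr4a1 had 97.2 CPM in Listeria and 204 CPM in naive (-1.07). Myeloid progenitor-like cells (44 Listeria, 50 naive) had -1.75 for Egr1, from 27 Listeria and 112 naive UMIs. A single cell held 51.9% of those Listeria UMIs and another 30.4% of the naive ones, and the ratio was 0.28 without the 5% of cells with the most UMIs. All 4 measured members were past 1.5-fold lower in neutrophil-like cells and both measured ones in myeloid progenitor-like cells. In classes this small many genes pass that limit: 11.1% of genes were lower and 18.8% higher in neutrophil-like cells, and 9.02% lower and 12.1% higher in myeloid progenitor-like cells.

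The relation to Fos was described in cells thinned to 4000 UMIs, so that depth does not make genes appear together. In HSC-like cells Egr1 was detected with Fos far more often than without it, Nr4a1 more often too, and Nr4a3 less often, while the intervals of Nr4a2 include no difference. Among HSC-like cells with a Fos UMI, 92.8% of 569 Listeria and 88.8% of 697 naive cells had an Egr1 UMI. Among those without one, the shares were 40.1% of 459 Listeria and 66.5% of 517 naive cells. The log2 ratio of the mean Egr1 UMIs with over without Fos was 2.75 (2.61 to 2.89) in Listeria and 1.51 (1.41 to 1.62) in naive, intervals that do not overlap.

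Nr4a1 had log2 ratios with over without Fos of 1.10 (0.99 to 1.20) in Listeria and 0.51 (0.43 to 0.59) in naive. Nr4a2 had 0.16 (-0.04 to 0.35) in Listeria and -0.02 (-0.17 to 0.14) in naive, both including 0. Nr4a3 was lower in cells with Fos in both libraries, with a log2 ratio of -0.87 in each (-1.34 to -0.41 in Listeria, -1.29 to -0.47 in naive). Its UMI was found in 10.4% of Listeria and 11.9% of naive cells with Fos, and in 17.4% of Listeria and 18.2% of naive cells without it. Other classes differed in part. Egr1 had log2 ratios with over without Fos of 3.16 in Listeria and 1.41 in naive multipotent progenitor-like cells. In megakaryocyte lineage-like cells it had 2.76 in Listeria and 1.45 in naive. Its intervals included 0 in T or NK cell-like and neutrophil-like cells of both libraries. Nr4a2 was higher with Fos in Listeria multipotent progenitor-like cells (0.36, 0.14 to 0.57), and in innate lymphoid-like cells of Listeria (1.16, 0.15 to 2.29) and naive (0.67, 0.14 to 1.22). The same held in naive megakaryocyte lineage-like (0.88, 0.17 to 1.63) and naive early B-like cells (0.70, 0.01 to 1.40). In every other class and library split by Fos, the Nr4a2 interval included 0. Nr4a3 in innate lymphoid-like cells had 0.71 in Listeria and 0.42 in naive, with intervals that include 0. In multipotent progenitor-like cells Nr4a3 had -0.33 (-0.80 to 0.13) in Listeria and -0.36 (-0.67 to -0.05) in naive. Cells of 1 library share their source, so these intervals say nothing of the spread between mice.

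**Figure D3:**
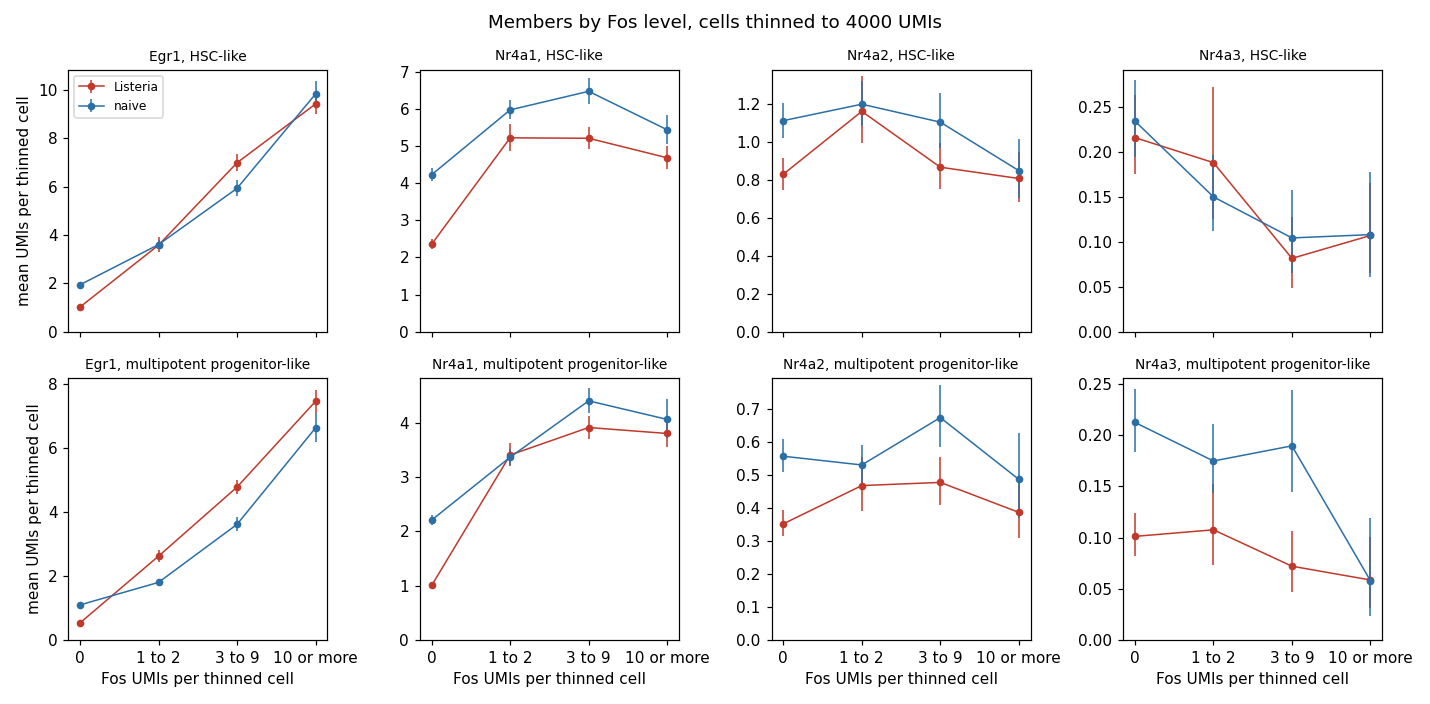
Mean UMIs per cell thinned to 4000 UMIs (y axis) of 4 members in HSC-like and multipotent progenitor-like cells, by Fos UMIs of the cell (x axis), for Listeria (red) and naive (blue), with 95% Poisson intervals. Egr1 climbs over the 4 Fos classes in both libraries, and in cells with no Fos UMI it averages 1.02 in Listeria and 1.94 in naive HSC-like cells.

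By Fos class, mean Egr1 in Listeria HSC-like cells was 1.02, 3.58, 6.99 and 9.42 UMIs at 0, 1 to 2, 3 to 9 and 10 or more Fos UMIs. In naive HSC-like cells it was 1.94, 3.61, 5.93 and 9.83 UMIs. The Egr1 levels of the libraries thus lay furthest apart in cells without Fos, where the log2 ratio of Listeria over naive was -0.92 (-1.09 to -0.77). It was -0.01 at 1 to 2, 0.24 (0.13 to 0.34) at 3 to 9 and -0.06 at 10 or more. Multipotent progenitor-like cells had -1.04 without Fos and 0.54, 0.40 and 0.17 in the higher classes.

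Nr4a1 did not climb with Fos in this way. In HSC-like cells it averaged 2.36, 5.22, 5.21 and 4.68 UMIs in Listeria and 4.23, 5.97, 6.47 and 5.44 in naive over the same classes. Its Listeria over naive ratio was -0.84 (-0.95 to -0.74) in cells with no Fos UMI and between -0.31 and -0.19 in the other classes. Nr4a2 had -0.42 without Fos, -0.35 at 3 to 9, and intervals that include 0 in the other classes. Splitting cells by Fos uses a gene that itself differed between libraries, so the classes do not hold matched cells: 22.7% of Listeria and 17.4% of naive HSC-like cells had 3 to 9 Fos UMIs, and 18.2% of Listeria and 11.4% of naive ones had 10 or more.

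Atf3, a bZIP transcription factor as Fos is, gave another split. Among HSC-like cells with under 3 Fos UMIs, those with 3 or more Atf3 UMIs averaged 4.14 Nr4a1 UMIs in Listeria and 5.81 in naive. Those with under 3 Atf3 UMIs averaged 2.59 in Listeria and 4.32 in naive. Nr4a3 averaged 0.319 UMIs in Listeria and 0.263 in naive cells high in Atf3, and 0.161 in Listeria and 0.157 in naive cells low in both. Nr4a1 and Nr4a3 were thus higher in cells with more Atf3 in both libraries. Egr1 averaged 1.55 in Listeria and 2.90 in naive cells high in Atf3, and 1.69 in Listeria and 2.41 in naive cells low in both. Among cells with 3 or more Fos UMIs it averaged 9.25 in Listeria and 7.61 in naive cells high in Atf3, and 7.92 in Listeria and 7.44 in naive cells with less Atf3.

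**Figure D4:**
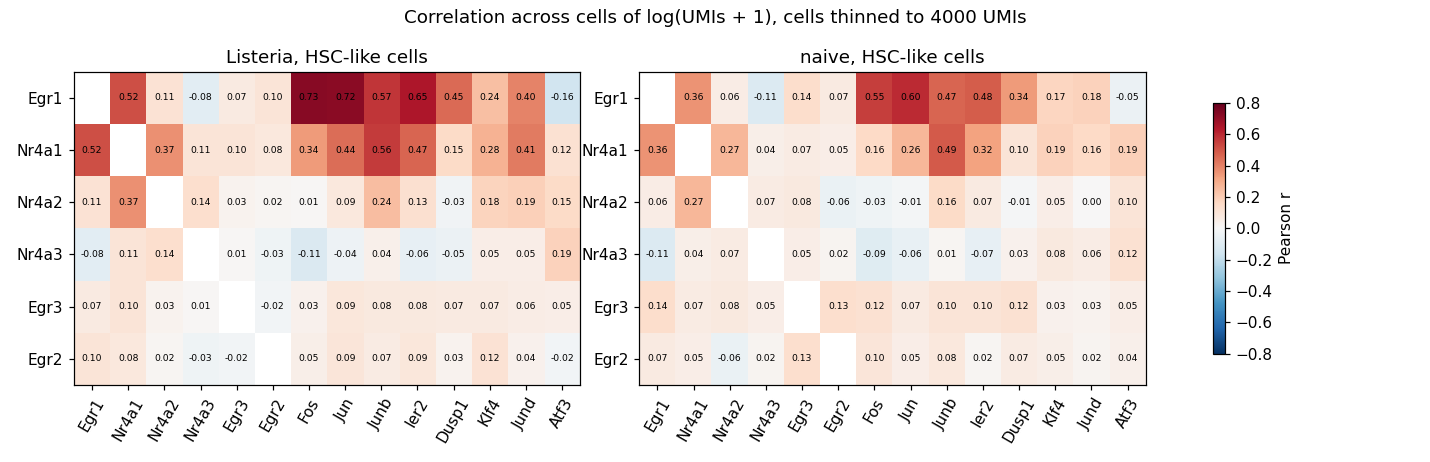
Pearson r across cells of log(UMIs + 1) between each member (rows) and the members and 8 other immediate early genes (columns), in 1028 Listeria (left) and 1214 naive (right) HSC-like cells thinned to 4000 UMIs. Egr1 with Fos reaches 0.73 in Listeria and 0.55 in naive, while Nr4a3, whose counts are sparse, stays between -0.11 and 0.19.

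Across single HSC-like cells, Egr1 correlated with Fos at r = 0.73 in 1028 Listeria cells and r = 0.55 in 1214 naive cells. Fos had the highest r of 4971 genes in Listeria, and among 4659 genes in naive Jun and Klf2 came before it. Nr4a1 had Junb as its closest partner in both (r = 0.56 in Listeria, 0.49 in naive), with Fos at rank 17 in Listeria and 56 in naive. Nr4a2 had Nr4a1 as its closest partner in both (r = 0.37 in Listeria, 0.27 in naive), while its r with Fos was 0.0065 in Listeria and -0.034 in naive. The counts of Egr2, Egr3 and Nr4a3 were sparse and their r low. For Nr4a3 with Atf3 it was 0.19 in Listeria and 0.12 in naive, which is given as a description only. These are descriptions across cells of 1 library each, which share free RNA and handling.

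Dividing cells, with UMIs of at least 3 of 12 cell cycle markers, had less of the 4 better measured members among HSC-like cells. Egr1 was at 522 CPM in 88 dividing and 1078 CPM in 969 other Listeria cells, a log2 ratio of -1.05 (-1.17 to -0.93). In naive it was at 812 CPM in 75 dividing and 996 CPM in 1175 other cells (-0.29). Nr4a1 had -1.01 in Listeria and -0.61 in naive, Nr4a2 -0.89 in Listeria and -0.85 in naive, and Nr4a3 -1.41 in Listeria and -1.06 in naive. In multipotent progenitor-like cells Egr1 was lower in dividing Listeria cells (-0.68) but slightly higher in dividing naive cells (0.14), so its relation was not general. Nr4a1 (-0.35 in Listeria, -0.37 in naive), Nr4a2 (-0.32 in Listeria, -0.28 in naive) and Nr4a3 (-0.89 in Listeria, -0.79 in naive) were lower in dividing cells there. In Listeria megakaryocyte lineage-like and naive early B-like cells the intervals of these Nr4a genes included 0.

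Over 17 profiles, each a class in 1 library with at least 50 cells, the genes most like Egr1 were Neat1, Jun, Zbtb38, Ryk and Itsn1 (Pearson r of log2(CPM + 10) from 0.91 to 0.86). Nr4a1 was most like Aff4, Trappc9, Uvssa, Ddx17 and Dtx3, Nr4a2 like Gm26532, Nbeal1, Akap8l, Coq10b and Eya2, and Nr4a3 like Macf1, Gimap8, Gbp8, Frmd4b and Clnk, all with r from 0.93 to 0.96. Egr2 was most like Pycr1, Bhlhe41, Pon3, Eaf2 and Qpctl (0.90 to 0.87), and Egr3 like Cyp4f13, Ell2, Gm17056, Srpr and Jun (0.77 to 0.74), and only 1 of the 17 profiles, a naive one, was plasma cell-like, the class where both were highest. In the profiles of a single library at most 3 of the 5 genes recurred for any member, and in Listeria alone at most 1, so these names depend on the profiles used. Among the members, Nr4a2 and Nr4a3 were the most alike (r = 0.87), then Nr4a1 and Nr4a2 (0.84), while Egr1 and Nr4a3 had 0.13.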

How the data were processed

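The authors deposited unnormalized UMI counts for all barcodes of both libraries, made with Cell Ranger 3.0.2 on mm10 per the submitters' processing notes. Per the labels' protocols, red cells of flushed leg marrow were lysed and 10x Genomics 3' libraries were prepared. The labels do not describe the sort. The members and lists were chosen with earlier results of these data known.

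Cells were filtered as stated above. A cell joined the class, of those whose marker number it met, with the largest share of markers. Those numbers were set after the marker counts of these cells had been seen. The lymphoid-primed (16) and dendritic (18) classes had too few Listeria cells to compare the libraries. In naive the lymphoid-primed class was also led by genes of another class. Naive cells of both classes entered the free RNA counts, and those of the lymphoid-primed class entered the profiles. Doublets were not called. Counts were summed per class and library and divided by their total, times 1e6 (CPM). Levels have exact Poisson intervals, with exact binomial intervals for ratios and Clopper-Pearson intervals for shares. Thinning to 4000 UMIs left out 29 Listeria and 36 naive HSC-like cells. Named genes were the members, Fos, the 4 lowest list genes past 1.5-fold and the 5 genes most like each member. On HSC-like counts simulated as Poisson sums, intervals held the true ratio for 96% of 100 genes lowered 1.5-fold, 94% of 100 raised 2-fold and 95.5% of 5416 unchanged. The intervals assume such sums, so this checks the calculation only. Clustering of UMIs in single cells was not simulated.

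Motifs were searched in 250-base windows, and 5 were tried. Of the RefSeq windows of Egr2, the one that ends at an annotated transcript start and overlaps no exon is shown. Another exon-free window of Egr2 was looked at first, and it held 1 CArG box and no TGACG. Alternatives used TMM factors (edgeR 4.0.16), median-ratio factors (DESeq2 1.42.0, R 4.3.3), and other filters, classes and depths. Python 3.11.15 was used.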

Additional observations from a re-analysis of the deposited data

Results flagged for a closer look

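For Egr1 and Nr4a2, classes moved in opposite directions between the libraries with intervals that exclude 0 on both sides, and the classes farthest apart are given here. Egr1 had a log2 ratio of Listeria over naive of 0.45 (0.04 to 0.87) in erythroid-like cells and -1.75 (-2.41 to -1.13) in myeloid progenitor-like cells. Nr4a2 had 0.53 (0.11 to 0.95) in T or NK cell-like cells and -2.50 (-5.69 to -0.38) in myeloid progenitor-like cells, the second from 2 Listeria and 14 naive UMIs. These differences between classes were not tested, and with 1 library per group no spread is known. A stricter rule was applied first, in which both sides also had to be over 1.5-fold, and it singled out no result. That requirement was dropped after this was seen. The Egr1 value of erythroid-like cells rests on 37 Listeria and 27 naive cells and was -0.19 without the 5% of cells with the most UMIs and -0.12 without cells that met another class. The Nr4a2 value of T or NK cell-like cells was -1.54 among cells with at least 5000 UMIs.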

How the results depend on the processing

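In HSC-like cells the lower Nr4a1, Nr4a2, Nr4a3 and Egr3 kept their direction under all alternatives run, and Egr1 did not. Egr1 had a log2 ratio of -0.038 without cells that met another class, 0.090 after thinning, -0.078 with TMM and -0.093 with median-ratio factors, and 0.080 as a mean over cells. Nr4a1 had -0.53 at no more than 5% mitochondrial UMIs, -0.41 with 1 more marker, -0.58 with TMM and -0.59 with median-ratio factors. Nr4a2 had -0.31 without cells that met another class, -0.52 with TMM and -0.54 with median-ratio factors. Nr4a3 had -0.18 without cells that met another class and -0.10 after thinning. Counting only cells with at least 2 UMIs of the gene, the gap in detection between cells with and without Fos was 64.9 points for Egr1 and 38.6 for Nr4a1 in Listeria, and 33.8 for Egr1 and 15 for Nr4a1 in naive. Without thinning the naive gaps were 15.3 points for Egr1 and 2.64 for Nr4a1. Of the immediate early list, 2 genes were higher with no minimum CPM, and 2 were lower at a 2-fold limit. Egr1 in myeloid progenitor-like cells turned to 0.28 without the 5% of cells with the most UMIs. The cause of these changes was not tested, except that a 2-fold limit admits fewer genes by construction. Of the values for HSC-like cells that answer a comparison, and of the counts, 22 moved and 56 did not. Of the other values 462 did not move, 65 moved, some of them with a change of sign, and 1 is the myeloid progenitor-like value just given. Without cells that met another class Egr1 changed sign in multipotent progenitor-like (-0.15), early B-like (0.091), erythroid-like (-0.12) and innate lymphoid-like cells (0.31), and Egr3 in early B-like cells (1.22). The early B-like values leave out most cells of that class, 329 in Listeria and 1130 in naive. The innate lymphoid-like value leaves out 43 of 78 Listeria and 112 of 237 naive cells. Nr4a1 in erythroid-like cells turned to -0.74 without those cells and -2.47 with 1 more marker, Egr2 in multipotent progenitor-like cells to 0.85 after thinning, and Nr4a2 in T or NK cell-like cells to -1.54 at 5000 UMIs or more. Egr1 in erythroid-like cells also had -0.19 without the 5% of cells with the most UMIs and -0.019 as a mean over cells. No paired analysis was possible because each group has 1 library. Classes of few cells, free RNA and doublets that were not called limit these values, and handling, batch and challenge cannot be told apart.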
